A study of Mus musculus with 4 samples.

Results

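The cells described here are macrophages that hold UMIs (unique molecular identifiers, 1 per captured transcript) of Vcam1, Ccl8 or Pla2g2d and lack the genes that mark the other macrophage states of the same tumours. Members were chosen by measured values: a cell was a member where the raw UMIs of Csf1r, Cd68 and Adgre1 summed to at least 3, those of Vcam1, Ccl8 and Pla2g2d summed to at least 3, no Cd3d, Cd3e or Cd3g UMI was present, and UMIs of Arg1 (under 3), Mmp12 with Mmp13 (under 5), Retnla, Ear2, Lpl and Dcstamp (sum under 3) and Mki67 with Top2a (sum under 2) were low. Among the 26435 cells that held 200 or more genes and less than 20% UMIs of mitochondrial genes, 2376 were members, and 7422 were in the macrophage gate, which asks only for the first sum, no Cd3 UMI and the low proliferation sum. They came from MT4788 mammary tumours grown in wild-type (WT) FVB mice, taken on day 4 and enriched for CD45+ cells on magnetic columns, with more than 90% CD31-EpCam-CD45+ cells per the labels, and sequenced as 10x 3′ libraries. There were 4 libraries, 1 per treatment. The control library is labelled Saline+PBS and the phenformin library Saline+Phenformin. The library called poly I:C here is labelled Poly I:C+PBS, and the combination is labelled Poly I:C+Phenformin. The genotype, the tumour line and the enrichment were shared by all 4 groups. Poly I:C is a synthetic RNA duplex that Toll-like receptor 3 and cytosolic sensors recognise, and phenformin, a biguanide drug, blocks respiratory complex I in mitochondria. The number of mice behind a library is not given in the sources used here.

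Tissue macrophages that make C1q, the recognition molecule of the classical complement pathway, bind and clear dying cells, and in tumours such cells often carry Apoe, Trem2 and scavenger receptors as well. Vcam1 is an adhesion molecule for integrin-bearing leukocytes, Ccl8 a chemokine that draws monocytes and lymphocytes, and Pla2g2d a secreted phospholipase of resting lymphoid tissue macrophages. Blood monocytes that enter a tumour carry Ccr2 and Ly6c2, and lose these genes as they mature into macrophages.

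Control, phenformin, poly I:C and combination gave 382, 383, 723 and 888 members with 3166296, 4107841, 7476466 and 8520049 UMIs. Their median UMI counts were 7276, 10131, 9639 and 9284, so control members were the shallowest. Across the pairs of libraries 94 cell barcodes occurred more than once; no barcode was a member in more than 1 library, and 18 member barcodes also occurred in another library. With 1 library per treatment no pair of libraries has a test, and intervals at the 95% level cover counting error only. Because each agent was given in 2 of the 4 libraries, a model with a term for poly I:C and a term for phenformin leaves 1 residual degree of freedom; its spread mixes differences between libraries with any interaction of the agents.

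Members were a larger share of the cells with poly I:C, with or without phenformin. Their share was 6.27% (5.67 to 6.91%) in control and 7.02% (6.36 to 7.73%) in phenformin. The poly I:C library stood at 10.9% (10.2 to 11.7%). The combination library stood at 10.7% (10.1 to 11.4%). The share with poly I:C was 1.74 times that of control (1.54 to 1.98), and the share in the combination was 1.53 times that with phenformin (1.35 to 1.73). The phenformin library stood at 1.12 times control (0.97 to 1.29) and the combination at 0.983 times poly I:C (0.89 to 1.09), with intervals that held 1. Other choices gave intervals that did not. Phenformin over control was 1.34 (1.14 to 1.58) after thinning, 1.2 (1.02 to 1.41) without cells holding UMIs of other lineages, and 0.79 (0.673 to 0.928) within the gate with a rule sum of at least 5. The combination over poly I:C was 1.2 (1.09 to 1.33) within the gate. Within the gate after thinning, the combination over poly I:C was 1.04 (0.942 to 1.16) and phenformin over control 1.01 (0.86 to 1.19). Both of these intervals held 1. Within the macrophage gate, members were 23.8% of the control gate, 21.0% of the phenformin gate, 36.7% of the poly I:C gate and 44.0% of the combination gate. Thinning drew 3000 UMIs from each cell that held at least 3000 and left out the shallower cells, so 4710, 4446, 5559 and 6192 cells remained. The gate shares then became 31.7%, 32.0%, 51.6% and 53.8%, and both poly I:C libraries remained above the other 2. The bead enrichment sets shares of all cells in part, and whether more cells or other recovered cells lay behind a share cannot be told apart.

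**Figure D1:**
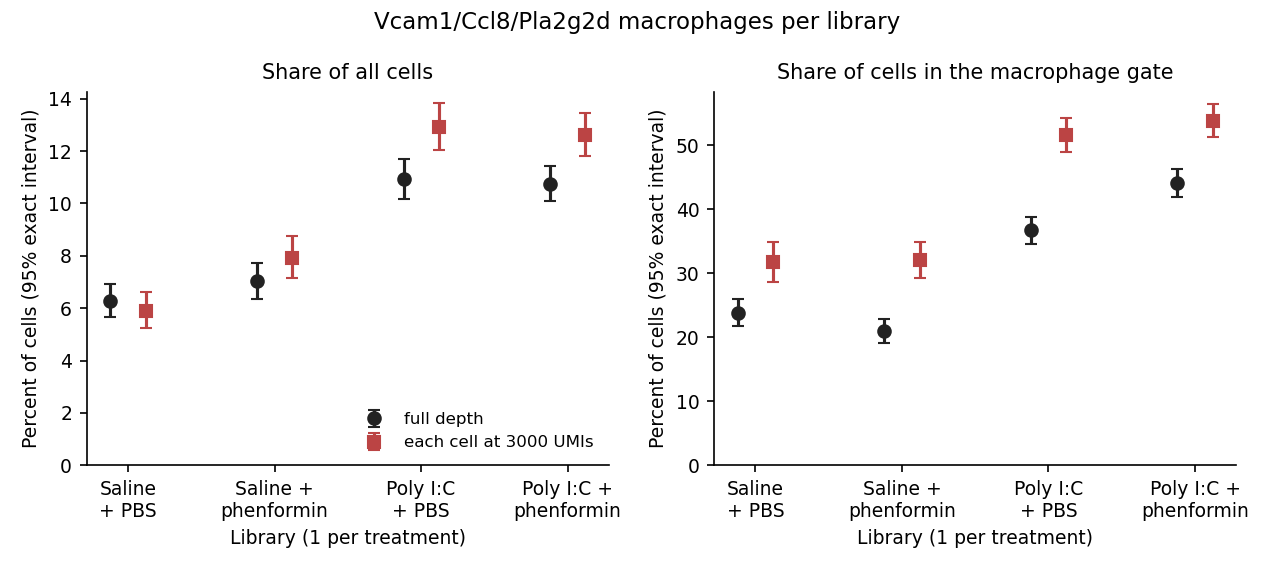
Share of member cells in each library, out of all cells (left) and out of the cells in the macrophage gate (right), in percent, with exact 95% binomial intervals. Circles are at full depth. Squares are after cells were thinned to 3000 UMIs, with cells under 3000 UMIs left out. Both libraries with poly I:C lie above both without it, at 10.7% and 10.9% of all cells against 6.27% and 7.02%.

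The genes of the rule describe the members and were not tested. Levels are given as CPM, the summed UMIs of the members of a library per 1e+06 UMIs of that sum. Ccl8 stood at 7160, 6955, 7032 and 5653 CPM in control, phenformin, poly I:C and combination, Vcam1 at 1206, 1159, 1578 and 1347, and Pla2g2d at 168, 144, 116 and 127. These levels moved little across the treatments, by less than 1.5-fold for each gene between any library and control. Most members entered through several genes: 81.9%, 75.2%, 85.2% and 83.3% held both a Vcam1 and a Ccl8 UMI. A smaller group, 10.5%, 17.0%, 8.85% and 8.9%, held Ccl8 but neither of the others. A Ccl8 UMI was also found in 39.0 to 46.2% of T cells, which should lack it. The median depth of T cells was 4598 to 6658 UMIs. For Vcam1 the share was 3.87 to 6.17%, and for Pla2g2d it was under 1%. Whether such UMIs came from free RNA or from mixed droplets was not tested. At a fixed 1000 UMIs per cell, 66.5 to 76.2% of members and 8.67 to 13.7% of T cells held Ccl8.

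The label of the cells held for most members and less so next to the rule's limit. At least 1 C1qa, C1qb or C1qc UMI was found in 89.8%, 86.2%, 97.0% and 98.3% of members, and an Apoe UMI in 91.1%, 89.3%, 98.9% and 98.0%. The sum of the 3 C1q genes had a median over cells of 8227, 7187, 12308 and 14452 CPM, and its spread over cells was wide, with a 10th percentile of 6.9, 0, 587 and 3862 CPM. Members whose Vcam1, Ccl8 and Pla2g2d UMIs summed to exactly 3, just inside the limit, numbered 35, 57, 42 and 43. Their C1qa stood at 593, 200, 794 and 3665 CPM and their Ly6c2, a monocyte gene, at 728, 892, 1092 and 972 CPM. Cells with a sum of 2, just outside, numbered 70, 78, 68 and 71, with C1qa at 342, 370, 823 and 1780 CPM and Ly6c2 at 1212, 1322, 1380 and 2006 CPM. Outside the combination these levels of C1qa were far below those of members as a whole. Cells at the limit were 9.16% and 14.9% of control and phenformin members but 5.81% and 4.84% of poly I:C and combination members. Among markers of other cell types, the 6 T cell markers, of which the rule bars the 3 Cd3 genes, summed to 5.48 to 12 CPM in members against 3360 to 4178 CPM in T cells, and the B cell, NK cell and red cell lists stayed under 30 CPM. Other lists had larger sums in members: endothelium summed to 61.5 to 106 CPM, tumour epithelium to 33.4 to 78.3, migratory dendritic cells to 20.2 to 82.1 and conventional dendritic cells to 5.75 to 31.0. Pecam1 alone gave 57.1 to 97.9 CPM of the endothelium sum. Mast cell markers summed to 41.9 CPM with poly I:C and to under 1 CPM in the other libraries. The 5 monocyte markers summed to 1169 to 1441 CPM in members and to 835 to 1554 CPM in T cells. The neutrophil list was highest in both libraries with poly I:C and the fibroblast list in both with phenformin, and their values stand beside the genes they touch. The part of these lists in the results was not tested.

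Beside the 1842 macrophages of the same tumours that passed the gate and none of the limits, members carried more of a set of genes that the rule did not name, given here as a description. By the lowest log2 ratio over the 4 libraries the leading genes were Pf4, H2-M2, Igfbp4, Apoe, C1qa, Ccl12, C1qc, Sepp1, Tlr12, C1qb, Cx3cr1 and Frmd4b. Pf4, a platelet and macrophage chemokine, stood at 187, 298, 435 and 276 CPM in members and at 5.24 to 27.8 CPM in those macrophages. Sepp1, the selenium carrier protein, stood at 1140, 1152, 1427 and 838 CPM against 130 to 156 CPM. Cx3cr1, the fractalkine receptor, stood at 54.0 to 83.5 CPM against 6.14 to 11.8 CPM. The 1606 Mmp12 and Mmp13 macrophages, which the rule leaves out, came closer: their C1qa was 2932 to 6044 CPM, and their Pf4 passed that of members with poly I:C and in the combination. Csf1r, the receptor for the macrophage growth factor, was at 558 to 653 CPM in members and 364 to 428 CPM in macrophages below all limits.

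**Figure D2:**
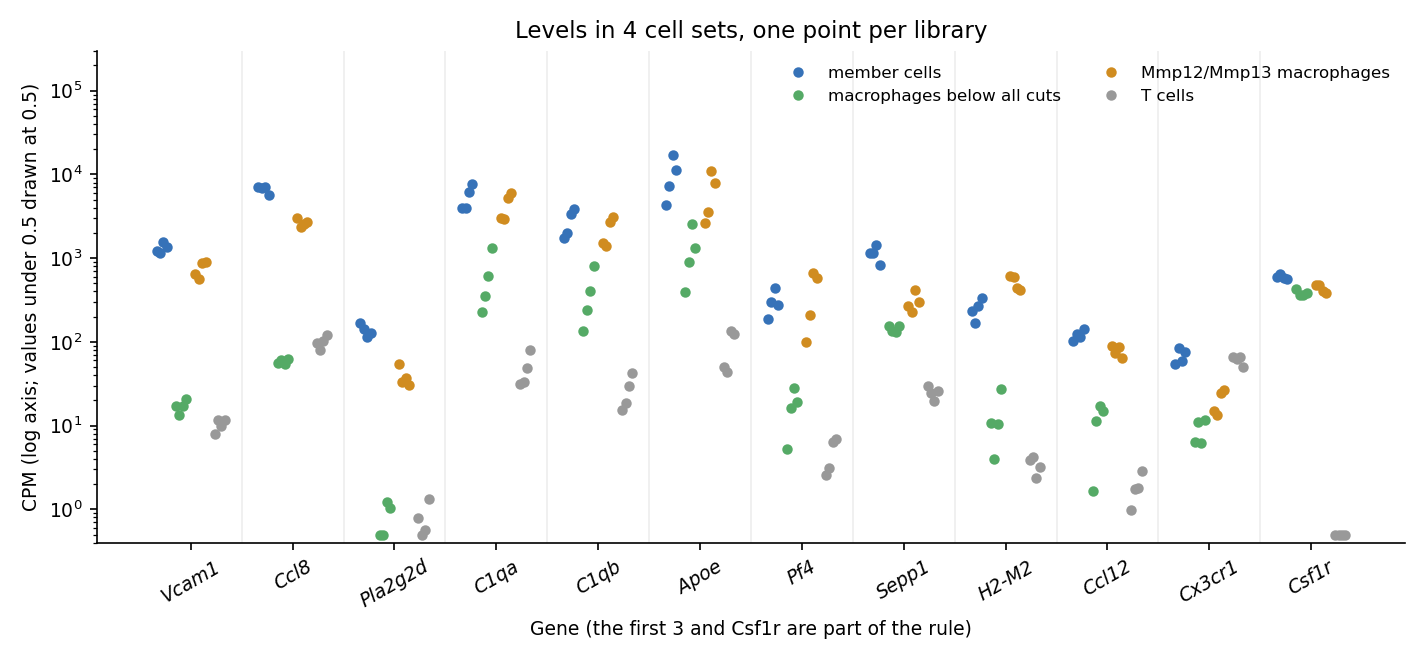
Level of 12 genes in CPM (log axis) in members, in macrophages below all limits, in Mmp12/Mmp13 macrophages and in T cells, with 1 point per library; Vcam1, Ccl8, Pla2g2d and Csf1r are part of the rule, and values under 0.5 CPM are drawn at 0.5. C1qa, Apoe, Pf4, Sepp1 and Ccl12 of members lie above macrophages below all limits in each library, while Mmp12/Mmp13 macrophages overlap members for several of them.

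Poly I:C was set against its absence over all 4 libraries. In the members, C1qa and C1qb, Trem2, Fabp5 and Lipa, Ms4a7, and Irf7 and Bst2 rose with poly I:C, and Ccl24, Ccl17, Ccr2 and Mgl2 fell. Of 5538 genes with at least 20 CPM in 2 libraries, edgeR's quasi-likelihood test called 44 higher (0.795% of those tested) and 17 lower (0.307%) at an adjusted p under 0.05. All 61 had the same direction without and with phenformin and in each of 14 alternatives in which they were tested, yet the number called ranged from 0 to 321. It fell to 0 where the sum of Vcam1, Ccl8 and Pla2g2d had to reach 5 and to 3 where C1q UMIs were required as well. With the same members it was 156 with median-of-ratios scaling and 321 with every gene of at least 10 UMIs. At an unadjusted edgeR p under 0.05, 583 genes were higher and 453 lower in the main fit. These numbers were 537 and 415 with a sum of at least 5 and 597 and 426 with C1q required. The cause of the shifts in the number called was not tested. The median log2 fold change over all genes tested was 0.00.

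The complement genes that passed were C1qa and C1qb. C1qb, a chain of the C1q recognition molecule, stood at 1725 CPM in control, 1998 with phenformin, 3348 with poly I:C and 3889 in the combination. Both libraries with poly I:C lay above both without it, at 1.94 times control (1.88 to 2.0) and 1.95 times phenformin (1.9 to 1.99), and C1qb rose with poly I:C by 1.03 ± 0.13 (SE) on the log2 scale (edgeR adjusted p = 0.029). C1qa, the chain whose gene names the cells, stood at 3946, 4014, 6104 and 7633 CPM and rose by 0.85 ± 0.14 (edgeR adjusted p = 0.0451). C1qc, at 2082, 1964, 2693 and 3443 CPM, had a log2 fold change of 0.67 and did not pass (edgeR adjusted p = 0.0798). The share of members with a C1qa UMI moved the same way, from 85.1% and 81.5% to 94.1% and 96.3%. C1qa in T cells was higher too. A C1qa UMI was held by 20.7% and 24.7% of T cells without poly I:C and by 28.3% and 32.0% with it. Their C1qa stood at 31.5, 33.3, 48.9 and 80.0 CPM. The part of free RNA in the members' levels was not tested. Requiring at least 3 C1q UMIs per member left C1qb at 2122, 2576, 3612 and 4050 CPM, with a log2 fold change of 0.78 that no longer passed (edgeR adjusted p = 0.112). Of 13 tested complement genes and receptors, C1qa and C1qb passed and none was lower, with a median log2 fold change of 0.22.

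The 3 C1q genes lie side by side on chromosome 4 of GRCm38, C1qa at 136895917 to 136898803, C1qc at 136889804 to 136893065 and C1qb at 136880129 to 136886187, all on the minus strand (GENCODE vM21). The promoter windows that RefSeq (GRCm38.p6) gives for C1qb and C1qc, from 250 bases before to 50 after the start, are shown. C1qb passed and C1qc did not, but both were higher with poly I:C and they were not tested against each other. Capitals mark GAGGAAGT on either strand, a core recognised by PU.1, the factor that macrophage genes depend on.
C1qb, chr4:136886151-136886450, minus strand: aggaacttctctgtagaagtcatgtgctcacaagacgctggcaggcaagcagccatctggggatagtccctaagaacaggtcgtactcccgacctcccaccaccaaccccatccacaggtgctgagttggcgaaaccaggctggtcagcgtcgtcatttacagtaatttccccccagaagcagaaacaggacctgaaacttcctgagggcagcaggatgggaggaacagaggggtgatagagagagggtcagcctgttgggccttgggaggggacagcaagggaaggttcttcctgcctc
C1qc, chr4:136892865-136893164, minus strand: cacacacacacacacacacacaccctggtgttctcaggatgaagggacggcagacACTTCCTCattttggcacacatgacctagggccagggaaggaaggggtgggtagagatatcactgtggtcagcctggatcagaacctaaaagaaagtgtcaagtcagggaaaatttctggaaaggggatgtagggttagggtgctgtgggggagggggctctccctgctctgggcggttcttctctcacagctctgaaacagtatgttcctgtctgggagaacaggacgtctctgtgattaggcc
The motif was in the C1qc window and not in that of C1qb. It was in 3.2% of all 32851 promoter windows, in 1 of 40 windows of genes higher with poly I:C and in 0 of 17 windows of genes lower; a match of letters is not a binding site.

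Of the lipid-handling genes, Trem2, Fabp5 and Lipa passed. Trem2, a receptor for lipids and lipoproteins, stood at 76.7, 81.3, 167 and 156 CPM and rose by 1.1 ± 0.12 (edgeR adjusted p = 0.0194). Fabp5, a fatty acid-binding protein, rose by 0.81 from 502 and 539 CPM to 882 and 849 CPM (edgeR adjusted p = 0.0416), and Lipa, lysosomal acid lipase, rose by 0.8 from 125 and 126 CPM to 181 and 237 CPM (edgeR adjusted p = 0.0387). These were 3 of 19 tested lipid genes, with none lower and a median of 0.27. In the CPM ratios of the pairs the median log2 ratio was 0.0044 without phenformin and 0.37 with it. Apoe, an apolipoprotein that macrophages secrete, had the highest level of the list and did not pass. Its levels of 4357, 7286, 17284 and 11190 CPM gave a log2 fold change of 1.38 (edgeR adjusted p = 0.0837). After thinning Apoe passed, with a log2 fold change of 1.1 (edgeR adjusted p = 0.0065). With C1q required it did not, at 1.16 (edgeR adjusted p = 0.189). Poly I:C alone was 3.97 times control (3.9 to 4.04) and the combination 1.54 times phenformin (1.52 to 1.56), and the difference between these ratios was not tested. Apoe in T cells was also higher in both libraries with poly I:C, at 50.6, 43.3, 135 and 124 CPM. The part of free RNA in the members' levels of Apoe was not tested.

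Several other genes rose, and of those named here only Ms4a4c, of the monocyte list, was in a gene list. Ms4a7, a tetraspan membrane protein of mature macrophages, stood at 568, 547, 1212 and 1337 CPM and rose by 1.27 ± 0.13 (edgeR adjusted p = 0.016), and it was called in 12 of 14 alternatives. A Ms4a7 UMI was found in 72.0%, 71.0%, 90.9% and 95.3% of members. Ms4a4c and Ms4a6b of the same family rose by 0.87 and 0.83 (edgeR adjusted p = 0.032 and 0.0387). Acp5, a lysosomal acid phosphatase, rose by 1.14 from 266 and 271 CPM to 453 and 693 CPM (edgeR adjusted p = 0.032). Fpr2, a formyl peptide receptor, rose by 1.03 from 27.8 and 40.9 CPM to 64.2 and 68.8 CPM (edgeR adjusted p = 0.0387), and Ctla2b and Tmem37 rose by 1.35 and 1.1. Tmem119, a gene best known from microglia, rose by 1.08 from 60.6 and 48.4 CPM to 93.5 and 125 CPM (edgeR adjusted p = 0.0416). Of 23 tested lysosome genes only Lipa passed, none was lower and the median was 0.20. In the CPM ratios of the pairs that median was 0.017 without phenformin and 0.21 with it. Ctsd, cathepsin D, at 1030, 1104, 1450 and 1783 CPM had a log2 fold change of 0.67 and did not pass. None of 17 scavenger and efferocytosis genes and none of 11 iron and heme genes passed. All 11 iron and heme genes lay above 0, with a median of 0.46. These counts are for the main fit, and some genes of the lists passed in alternatives. After thinning, Ctsl of the lysosome list rose by 0.93 and Ftl1 of the iron list by 0.60 (edgeR adjusted p = 0.00396 and 0.0172). Ctsl also passed with Vcam1 alone (edgeR adjusted p = 0.038). With C1q required neither gene passed (edgeR adjusted p = 0.145 and 0.123).

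A few interferon-stimulated genes were higher as well. Irf7, the transcription factor that amplifies type I interferon, stood at 256, 318, 439 and 651 CPM and rose by 0.98 ± 0.12 (edgeR adjusted p = 0.029); the combination was the highest library and control the lowest. Bst2, tetherin, which holds budding virus at the cell surface, stood at 363, 374, 552 and 652 CPM and rose by 0.78 ± 0.12 (edgeR adjusted p = 0.0389). These were 2 of 32 tested type I interferon-stimulated genes, none was lower, and the median was 0.27. Phf11b and Oasl1 had log2 fold changes of 0.71 and 0.63 and did not pass. Of 21 interferon gamma-responsive genes, 21 MHC class I genes and 13 MHC class II genes none passed in the main fit, with medians of 0.23, 0.21 and 0.13. After thinning, Fcgr4 of the interferon gamma list rose by 0.64 and passed (edgeR adjusted p = 0.0192). With C1q required Fcgr4 did not pass (edgeR adjusted p = 0.129). The median of the same 13 class II genes was -0.03 and -0.07 in the CPM ratios of the poly I:C pairs. The sign was thus not the same in both measures.

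The promoter window of Bst2 is shown because it holds an interferon response element (GAAA, any 2 bases, GAAA, searched on both strands), in capitals, in a gene that rose with an interferon inducer; that of Ccl17, which fell, holds the letters of a STAT6 site (TTC, any 4 bases, GAA) (RefSeq, GRCm38.p6).
Bst2, chr8:71537423-71537722, minus strand: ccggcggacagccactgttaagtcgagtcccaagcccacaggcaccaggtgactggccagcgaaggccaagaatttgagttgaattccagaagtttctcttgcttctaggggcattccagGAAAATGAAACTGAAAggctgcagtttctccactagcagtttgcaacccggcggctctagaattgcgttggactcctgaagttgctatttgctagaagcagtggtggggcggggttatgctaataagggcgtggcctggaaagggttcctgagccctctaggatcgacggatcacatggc
Ccl17, chr8:94810203-94810502, plus strand: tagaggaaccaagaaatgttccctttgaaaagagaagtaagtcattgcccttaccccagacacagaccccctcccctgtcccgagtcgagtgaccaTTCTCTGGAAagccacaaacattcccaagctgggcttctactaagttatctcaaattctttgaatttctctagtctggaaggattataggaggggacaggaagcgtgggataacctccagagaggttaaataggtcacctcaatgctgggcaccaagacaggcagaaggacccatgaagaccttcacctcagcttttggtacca
The interferon element was in 3.44% of all windows and in 5 of 40 windows of genes higher with poly I:C, and in 0 of 17 windows of genes lower. It was not in the window of Irf7. The STAT6 letters were in 6.95% of all windows, in 5 of 40 and in 1 of 17.

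Chemokines moved in both directions. Ccl5, a chemokine for T cells and an interferon target, stood at 777, 907, 1599 and 4730 CPM and rose by 1.79 ± 0.28 (edgeR adjusted p = 0.0387). The combination was the highest library, at 2.96 times poly I:C (2.9 to 3.02), and a Ccl5 UMI was found in 49.2%, 59.5%, 76.9% and 89.9% of members. T cells, which make Ccl5 themselves, held 988, 1776, 4749 and 3603 CPM of it, and the part of their free RNA was not tested. Ccl24, an eosinophil chemokine, stood at 1158, 782, 100.4 and 18.1 CPM and fell by 4.34 ± 0.43 (edgeR adjusted p = 0.016). A Ccl24 UMI was found in 59.7%, 46.7%, 11.8% and 4.73% of members and in 12.3%, 14.7%, 1.66% and 0.599% of T cells. Ccl24 in T cells was thus lower with poly I:C as well, and the part of free RNA was not tested. Ccl17, a chemokine for Ccr4-bearing T cells that interleukin 4 induces, stood at 66, 36.3, 12.7 and 5.28 CPM and fell by 2.47 ± 0.19 (edgeR adjusted p = 0.0137), but the 5 cells with the most held 83.7%, 75.8%, 55.8% and 37.8% of its UMIs. Of 18 tested chemokines 1 was higher and 2 were lower, with a median of 0.07.

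**Figure D3:**
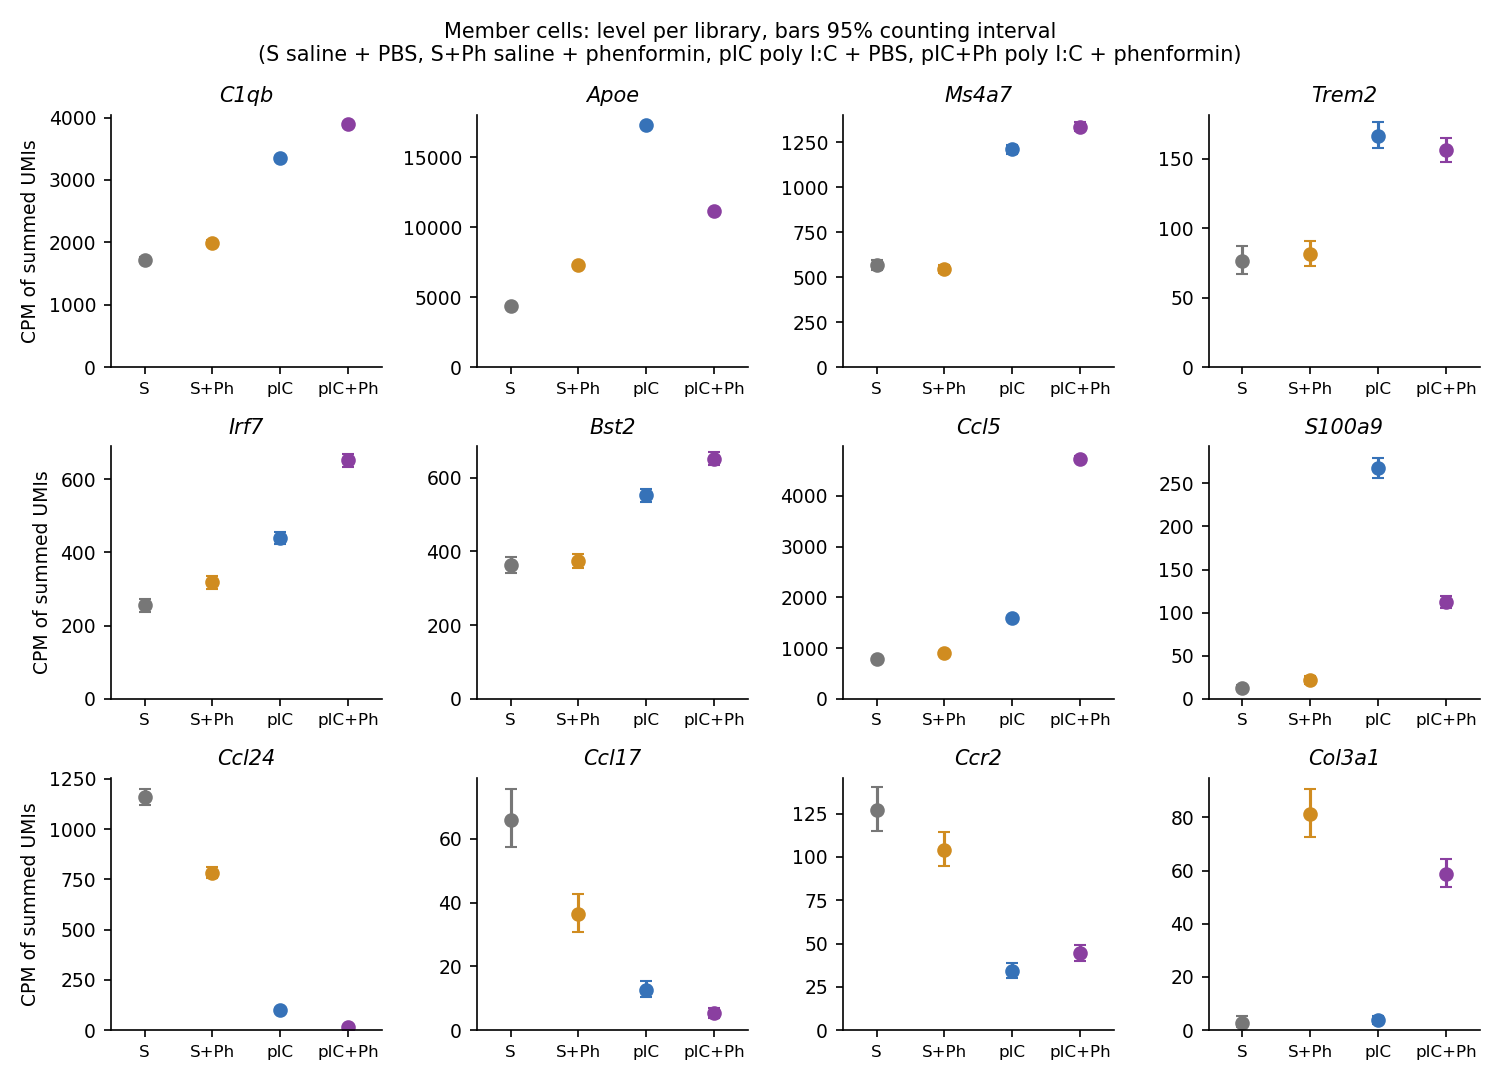
Level of 12 genes in member cells in each library, in CPM of the summed UMIs, with 95% counting intervals as bars; each panel starts at 0 and has its own scale. C1qb, Ms4a7, Trem2, Irf7, Bst2 and Ccl5 are higher and Ccl24, Ccl17 and Ccr2 lower in both libraries with poly I:C, and Col3a1 is high in both libraries with phenformin.

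Of the monocyte genes, Ccr2 and Fn1 fell and Ms4a4c rose. Ccr2, the receptor by which monocytes leave the marrow, stood at 127, 104, 34.2 and 44.5 CPM and fell by 1.48 ± 0.16 (edgeR adjusted p = 0.0194). A Ccr2 UMI was found in 37.4%, 41.8%, 19.1% and 20.9% of members. Fn1, fibronectin, fell by 1.36 (edgeR adjusted p = 0.0326), from 32.8 and 99.3 CPM to 16.1 and 30.6 CPM, with 33.3 to 77.5% of its UMIs in 5 cells of a library; after thinning its log2 fold change was -0.51 and did not pass (edgeR adjusted p = 0.364). Thus 1 of 15 tested monocyte genes was higher and 2 were lower. The median log2 fold change was -0.26, but the median log2 CPM ratio of the same 15 genes was 0.12 without phenformin and -0.65 with it. Ly6c2, at 227, 303, 293 and 277 CPM, and Plac8, at 874, 986, 818 and 815 CPM, did not pass. Requiring C1q UMIs moved Ccr2 to 107, 83.0, 31.3 and 42.2 CPM, a log2 fold change of -1.29 that did not pass (edgeR adjusted p = 0.107). Mgl2, a lectin for galactose sugars, fell by 1.4 from 177 and 230 CPM to 88.5 and 59.9 CPM (edgeR adjusted p = 0.0416). Cd83, an activation marker of antigen-presenting cells, fell by 0.92 from 151 and 123 CPM to 74.5 and 62.7 CPM (edgeR adjusted p = 0.029). Flt1, a receptor for vascular endothelial growth factor, fell by 1.96 from 38.2 and 37.0 CPM to 10.7 and 7.86 CPM (edgeR adjusted p = 0.0194). St8sia4, a sialyltransferase that builds polysialic acid, fell by 1.33 from 66.6 and 70.8 CPM to 20.7 and 31.8 CPM. Uck2, a kinase of pyrimidine salvage, fell by 1.25, and Klrb1b, a C-type lectin-like receptor, by 1.05. Plbd1, a phospholipase of myeloid cells, fell by 0.85 from 490 and 399 CPM to 248 and 217 CPM, and Cnn3, Ubash3b and Arf2 fell by 1.03, 0.79 and 0.73. Thbs1, thrombospondin, at 311, 418, 192 and 122 CPM was past 1.5-fold lower in both pairs and did not pass (edgeR adjusted p = 0.0791).

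The steepest rise lay in genes that few members held. S100a9, a calcium-binding protein of neutrophils and monocytes, stood at 12, 21.4, 268 and 112 CPM and rose by 3.4 ± 0.41 (edgeR adjusted p = 0.028). Its UMIs were in 4.19%, 1.31%, 5.53% and 6.53% of members, and the 5 cells with the most held 71.1%, 100%, 77.7% and 74.1% of them. Its log2 fold change was 2.4 after thinning and 6.09 with C1q required, and it did not pass with a rule sum of at least 5 (edgeR adjusted p = 0.209). The 5 neutrophil markers, S100a8 and S100a9 among them, summed to 76.1, 89.1, 487 and 227 CPM in members, moving with S100a9. Csf3r gave 53.1, 51.4, 52.7 and 62.8 CPM of these sums. In T cells the 5 markers summed to 119, 9.32, 341 and 124 CPM. Klk1, at 4.74, 4.63, 26.2 and 21.6 CPM, rose by 2.41 with 73.9 to 100% of its UMIs in 5 cells. With a rule sum of at least 2 it stood at 43.1, 24.2, 32.4 and 37.0 CPM, with a log2 fold change of 0.17 that did not pass (edgeR adjusted p = 0.707). The 4 plasmacytoid dendritic cell markers summed to 34.4, 35.3, 60.2 and 58.8 CPM. Saa3, an acute-phase protein, rose by 2.23 (edgeR adjusted p = 0.016) from 14.5 and 19.5 CPM to 42.7 and 117 CPM, and Il18, an inflammasome-processed cytokine, rose by 1.14 (edgeR adjusted p = 0.0455) from 22.7 and 30.4 CPM to 60.6 and 51.6 CPM. They were 2 of 27 inflammatory genes, none was lower, and the median was 0.08, against -0.06 and -0.05 in the CPM ratios of the pairs. Gdf15 and Ddit3, stress response genes, rose by 1.3 and 0.89 (edgeR adjusted p = 0.0333 and 0.0416), as 2 of 18 genes of the integrated stress response with a median of 0.12.

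Lists of energy metabolism gave no call for poly I:C. None of 37 nuclear-encoded complex I subunits, 13 mitochondrially encoded respiratory chain genes and 25 glycolysis and hypoxia genes passed. Of the mitochondrially encoded genes, 12 of 13 lay below 0 with a median of -0.31, led by mt-Nd3, a complex I subunit, at 377, 453, 245 and 187 CPM with a log2 fold change of -0.88 that did not pass. No gene passed either among 9 lipid mediator genes, 10 tissue-resident macrophage genes, 15 immunoregulatory genes and 21 heat shock and immediate early genes. These counts are for the main fit. After thinning, Cbr2 of the tissue-resident list had a log2 fold change of -1.06 and passed (edgeR adjusted p = 0.0271). With C1q required Cbr2 did not pass (edgeR adjusted p = 0.129).

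**Figure D4:**
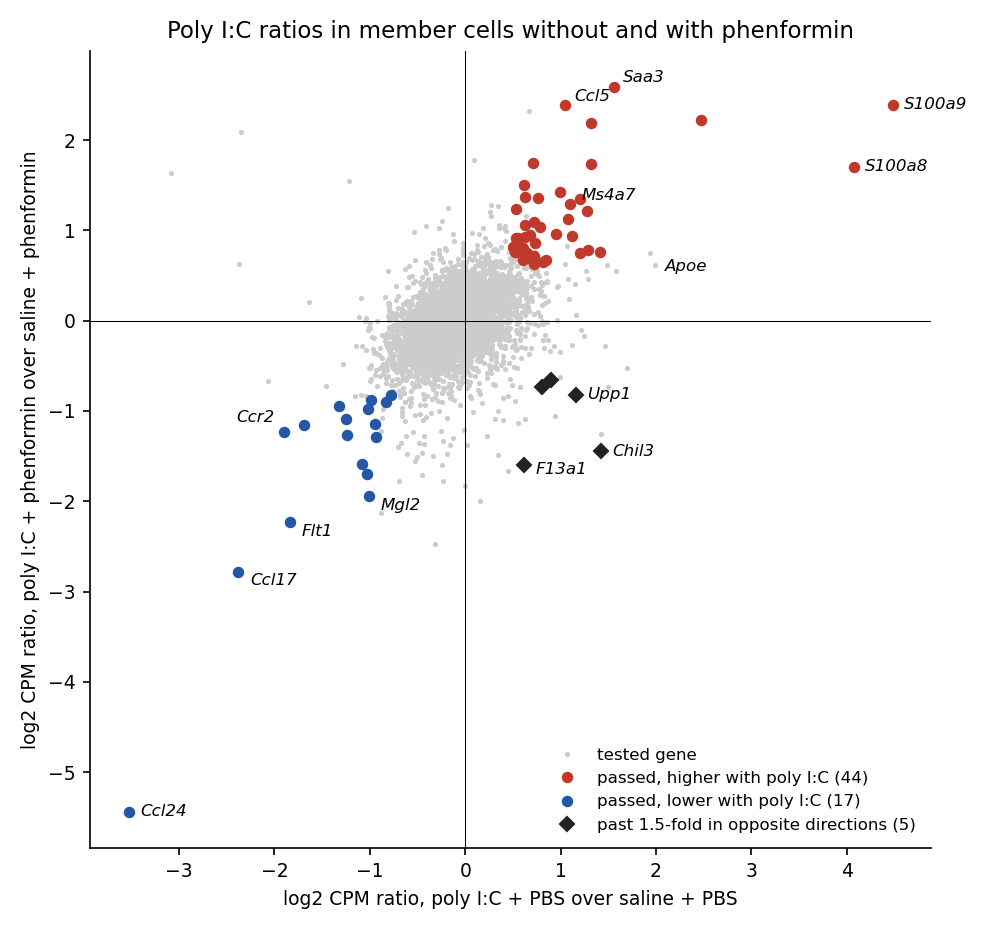
Each tested gene by its log2 CPM ratio in poly I:C over control (x axis) and in the combination over phenformin (y axis), where a library with no UMI enters at 3 UMIs; red and blue points passed the additive test higher or lower with poly I:C, and diamonds are past 1.5-fold in opposite directions. The 61 genes that passed lie in the upper right and lower left, while Chil3, F13a1, Upp1, Clec4e and Il1r2 lie in the lower right.

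Taken pair by pair, with genes of at least 50 CPM and 30 UMIs in the higher library, 99 of 3173 genes were at least 1.5-fold higher and 138 lower in poly I:C than in control (3.12% and 4.35%). With TMM scaling this split turned to 176 higher and 71 lower, so the balance of directions in this pair depends on the scaling. In the combination over phenformin 105 of 3160 were higher and 122 lower (3.32% and 3.86%), or 119 and 107 with TMM scaling. These pairs share no library: of 3034 genes compared in both, 30 were higher in both (0.989%), 28 were lower in both (0.923%) and 5 went in opposite directions.

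The poly I:C response of members was compared with that of the macrophages below all limits in a fit on 8 sums, chosen after the data were seen. None of 5554 genes differed in it (edgeR, smallest adjusted p = 0.521; 307 at an unadjusted p under 0.05). Those macrophages alone gave 0 genes higher and 0 lower of 5555, so nothing here was shown to be particular to members. C1qb, for example, stood in them at 135, 242, 407 and 807 CPM, in the same order as in members, and Ccl24 at 575, 1135, 210 and 35.4 CPM.

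Phenformin was set against its absence in the same model. It called 4 genes higher (0.0722%) and 0 lower (0%; 73 lower at an unadjusted p under 0.05, 0 lower with DESeq2), and the 4 were collagen and matrix genes of fibroblasts. Col3a1, type III collagen, stood at 2.84, 81.3, 3.75 and 58.8 CPM and rose by 4.24 ± 0.23 (edgeR adjusted p = 0.000934). Col1a2 and Col1a1, the chains of type I collagen, rose by 3.74 and 3.57 (edgeR adjusted p = 0.00132 and 0.00355), and Sparc, a collagen-binding matrix protein, rose by 1.81 (edgeR adjusted p = 0.0129). Very few members held these UMIs: Col3a1 was found in 1.57%, 1.57%, 3.73% and 3.27% of them, and 5 cells held 99.7% and 95.2% of its UMIs in the phenformin and combination libraries. The 4 fibroblast markers summed to 12.9, 278, 14.3 and 141 CPM in members. No gene passed for phenformin without the members holding a UMI of Col1a1, Col1a2, Col3a1 or Dcn. Nor did any gene without the members over 2 times the median UMI count of their library. Neither set can speak for the 4 genes, since none of them was tested in either. The first set holds no Col1a1, Col1a2 or Col3a1 UMI by construction.

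None of the 20 gene lists held a gene that passed for phenformin in the main fit, but some did in alternatives. After thinning, Ccl5 rose by 0.93 and Cfb, complement factor B, by 0.83 (edgeR adjusted p = 0.00575 and 0.0208), and neither passed with C1q required. Cxcl3, a chemokine, fell by 2.43 with C1q required and by 2.4 with Vcam1 alone (edgeR adjusted p = 0.0225 and 0.0156). With a rule sum of at least 5 it did not pass (edgeR adjusted p = 0.0786). Of 37 nuclear-encoded complex I subunits, the target of the drug, 35 lay above 0 with a median of 0.12, and all 13 mitochondrially encoded genes lay below 0 with a median of -0.12, against -0.00 over all genes tested. Irf7 had a log2 fold change of 0.43 ± 0.12 and C1qb of 0.2 ± 0.13, and neither passed. Cxcl13, a B cell chemokine, stood at 25.9, 28.5, 5.08 and 121 CPM, with a log2 fold change of 2.45 ± 0.81 that did not pass (edgeR adjusted p = 1); 7.43% of combination members held it against 1.52 to 2.09% elsewhere. Pair by pair, 36 of 3168 genes were at least 1.5-fold higher and 14 lower in phenformin than in control (1.14% and 0.442%; 51 and 8 with TMM scaling). In the combination over poly I:C 31 of 3028 were higher and 54 lower (1.02% and 1.78%; 23 and 65 with TMM scaling). These pairs share no library either: of 2897 genes compared in both, 2 were higher in both (0.069%), 0 were lower in both (0%) and 9 went in opposite directions.

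**Figure D5:**
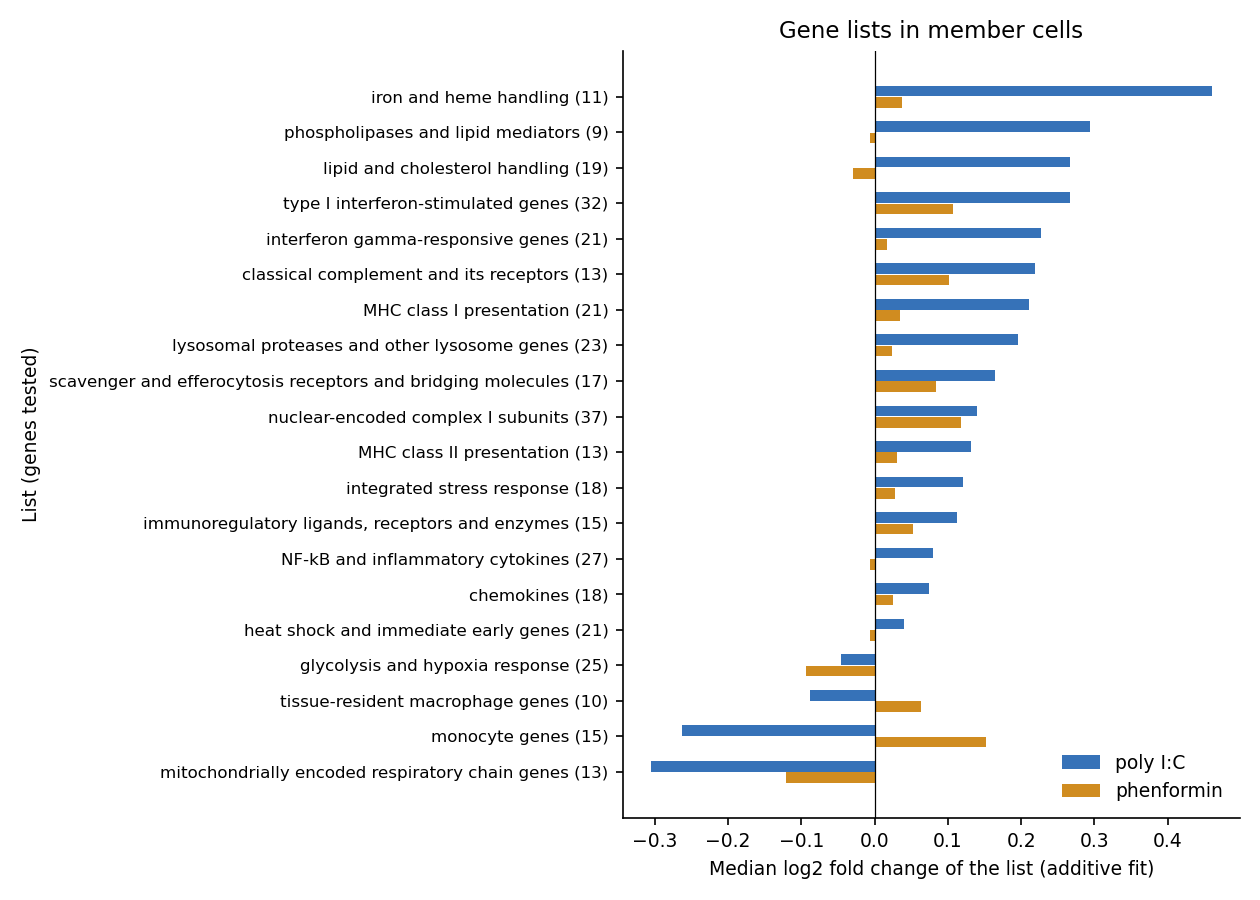
Median log2 fold change of each gene list in members for poly I:C and for phenformin in the additive fit, with the number of tested genes in parentheses. Medians for poly I:C run from -0.31 for mitochondrially encoded genes to 0.46 for iron and heme handling, and those for phenformin from -0.12 to 0.15.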

How the data were processed

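Gene counts of single cells were measured in 4 libraries, 1 per treatment. The authors deposited unnormalized UMI counts for 27998 features and each barcode. The submitters' processing notes name Cell Ranger 3.1.0 and the builds mm10 and GRCm38, and no further settings. The libraries held 7309, 6539, 7668 and 9303 barcodes and 59071838 to 77488625 UMIs. No doublet caller was run, so mixed droplets were addressed by leaving members out.

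The members and gene lists were chosen with earlier results of these data known. Counts were summed over members per library and tested with edgeR 4.0.16 (R 4.3.3; TMM scaling, quasi-likelihood, terms for both agents, genes with at least 20 CPM in 2 libraries, Benjamini-Hochberg adjustment). The test was tried on simulated data with known changes. Two-library ratios have exact intervals conditional on the total, and shares Clopper-Pearson intervals; both cover counting error only. A library with no UMI entered a ratio at 3 counts. The labels do not say whether libraries came from separate animals, so p-values cannot be read as a spread between animals. They rest on 1 residual degree of freedom, which mixes differences between libraries with any interaction of the agents. A further 6.4 prior degrees of freedom were borrowed across genes.

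Named were the 12 higher and 12 lower genes that passed and were at least 1.5-fold in both pairs, by the smaller ratio (places left over went to genes past 1.5-fold that did not pass), up to 4 genes per list, 5 per agent in opposite directions, and 12 leading genes of members; rule genes, numbered gene models, ribosomal, globin, immunoglobulin and T cell receptor genes were not ranked. Klk1, Tmem119, Flt1, Ms4a6b, S100a8, Col1a1, Col1a2 and Sparc were chosen after their values were seen, as was the fit on 8 sums. Positions are from GENCODE vM21, matched by gene ID for all 200 named genes. Alternatives varied scaling (DESeq2 1.42.0 among them), filters, the rule, depth and mixed droplets. T cells, in which UMIs of macrophage genes were counted, had at least 2 Cd3 UMIs and no Csf1r, Cd68 or Adgre1 UMI.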

Additional observations from a re-analysis of the deposited data

Results flagged for a closer look

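Some genes were past 1.5-fold in opposite directions in 2 pairs of libraries that share no library; with 1 library per treatment these differences were not tested. For poly I:C, the ratio over control was 2.68 for Chil3, a chitinase-like protein of monocytes and neutrophils, 1.53 for F13a1, a coagulation factor chain of monocytes, 2.23 for Upp1, 1.87 for Clec4e, a receptor for mycobacterial lipid, and 1.75 for Il1r2, the decoy receptor of interleukin 1. The ratio of the combination over phenformin was 0.367 for Chil3, 0.33 for F13a1, 0.566 for Upp1, 0.636 for Clec4e and 0.599 for Il1r2. Chil3 stood at 32.8 CPM in control, 120.0 with phenformin, 88.0 with poly I:C and 44.0 in the combination, with either agent alone above both control and the combination. This pattern depended on which cells were members: with a rule sum of at least 5 Chil3 stood at 28.2, 39.6, 54.2 and 35.2 CPM in the same order, and with C1q required at 15.6, 26.4, 58.8 and 34.5 CPM, where phenformin was below the combination. For phenformin, the ratio over control was 3.65 for Chil3, 2.17 for S100a4, 1.56 for S100a11, 1.68 for Clec4e and 1.58 for Emp1. The ratio of the combination over poly I:C was 0.5001 for Chil3, 0.488 for S100a4, 0.485 for S100a11, 0.573 for Clec4e and 0.558 for Emp1. The share of members whose Vcam1, Ccl8 and Pla2g2d UMIs summed to exactly 3 was also highest with phenformin, at 14.9% against 9.16%, 5.81% and 4.84%, and its part in these ratios was not tested.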

How the results depend on the processing

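No paired analysis was possible because each treatment has 1 library. Leaving out a library leaves no residual degree of freedom, so named genes then have the ratio of the remaining pair and no test. Trbc1 was not used in the other-lineage list.

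For poly I:C, genes called higher and lower, 44 and 17 as reported, became 101 and 55 with median-of-ratios scaling, 111 and 158 without TMM and 194 and 127 with every gene of at least 10 UMIs. They became 14 and 7 with a rule sum of at least 2, 0 and 0 with at least 5 (537 higher and 415 lower at an unadjusted p under 0.05), 21 and 9 with Vcam1 alone, 3 and 0 with C1q required (597 and 426 at an unadjusted p under 0.05), and 22 higher with stricter cell filters. They became 99 and 59 after thinning, 69 and 43 without members holding UMIs of other lineages, and 14 and 6 without members holding fibroblast UMIs, an alternative chosen after seeing the data. DESeq2 called 40 and 13 and shared 36 of the 61 genes. For phenformin, 4 higher and 0 lower became 7 and 1 without TMM, 22 and 11 with every gene, 1 higher without the poly I:C term, 1 higher with a rule sum of at least 5, 2 lower with Vcam1 alone and 1 lower with C1q required. edgeR called 0 higher with stricter cell filters, without other lineages, without high-UMI members and without fibroblast UMIs, with 71, 94, 87 and 70 higher at an unadjusted p under 0.05. After thinning 5 were higher, Ccl5 and Cfb among them, and 0 of the 5 were among the 4. Where cells were left out or fewer genes tested the construction changes what is counted; otherwise the cause was not tested.

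At 2-fold, genes higher and lower were 24 and 16 for poly I:C over control, 22 and 35 for the combination over phenformin, 9 and 0 for phenformin over control, and 7 and 13 for the combination over poly I:C. With TMM factors they were 176 and 71 in the first pair and 8 lower in the third. With at least 20 CPM and 10 UMIs they were 166 and 386, 228 and 238, 79 and 91, and 98 and 87 in the same order. After thinning they were 150 and 304 in the first pair, 83 and 116 in the third and 50 higher in the last, and the mean over cells gave 23 lower in the third.

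The share ratio of poly I:C over control was 2.19 after thinning. That of the combination over phenformin was 2.1 within the gate, 1.83 with a rule sum of at least 5, 1.82 with Vcam1 alone and 1.33 without other lineages. That of phenformin over control was 0.881 within the gate and 1.34 after thinning, and that of the combination over poly I:C was 1.2 within the gate. Within the gate after thinning, these ratios were 1.01 for phenformin over control and 1.04 for the combination over poly I:C. Among named genes, Chil3 in the combination over phenformin turned to a log2 ratio of 0.38 with C1q required and 0.0543 with Vcam1 alone, and Clec4e to 0.12 after thinning. For phenformin, Fn1 turned to -0.19 without high-UMI members and Gdf15 to -0.13 without other lineages. The 61 and 4 genes called kept their direction in each alternative in which they were tested. For phenformin this says little. Of the 4 genes, 0 were tested after thinning and 0 without other lineages, high-UMI members or fibroblast UMIs, and 1 was tested with stricter cell filters. After thinning Col1a1 stood at 26.4, 5.68, 6.04 and 9.82 CPM in control, phenformin, poly I:C and combination.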
